A study of Mus musculus with 6 samples.

Results

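The enzymes that turn cholesterol into conjugated bile acids were followed in whole liver of mice lacking Lmln and of wild-type mice. The 10 members, taken by gene symbol as textbook enzymes of the classic and alternative routes and of conjugation, were Cyp7a1, Cyp8b1, Cyp27a1, Cyp7b1, Cyp39a1, Hsd3b7, Akr1d1, Amacr, Baat and Slc27a5. All 10 were found among the 55367 gene names of the count table, 9 had counts, and these 9 passed the filter on low counts and were tested. Lmln encodes invadolysin, a metalloprotease. The Lmln-KO group held 3 libraries from Lmln-/- mice, aged 46 weeks for replicates 1 and 2 and 39 weeks for replicate 3, and the WT group held 3 libraries from wild-type mice aged 46 weeks. All were of the C57BL/6J strain, and no treatment, diet or time of collection is given in the labels. The sources used here do not say how the Lmln allele was made.

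Bile acids are made from cholesterol in hepatocytes. In the classic route Cyp7a1 hydroxylates cholesterol at the start, and in the alternative route Cyp27a1 makes oxysterols that Cyp7b1 hydroxylates, after which both routes share enzymes that modify the ring, shorten the side chain and join the product to taurine or glycine. The nuclear receptor FXR, encoded by Nr1h4, is known to repress Cyp7a1 and Cyp8b1 when bile acids accumulate, through SHP (Nr0b2) in liver and through intestinal FGF15 acting on Fgfr4 and Klb.

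The gene counts summed to between 20957895 and 22494696 per library in Lmln-KO and between 17388360 and 18272045 in WT. Counts of Lmln itself were 4, 12 and 2 in the Lmln-KO libraries (replicates 1, 2 and 3), against 79, 80 and 39 in the WT libraries. The labels do not give sex, but Lmln-KO replicates 1 and 2 and WT replicate 1 carried transcripts of the Y-linked genes Ddx3y, Eif2s3y, Kdm5d and Uty, which summed to 216 to 235 CPM (counts scaled to the size of the library) there and to 0.16 CPM or less in the other libraries. Lmln-KO replicate 3 instead had 1947 CPM of Xist, an RNA that female cells make, and WT replicates 2 and 3 had 1884 and 1878 CPM, while the libraries with Y-linked transcripts had less than 1 CPM. Each genotype is therefore also compared within these sex-marker sets and in a fit with a term for the set. One genotype is a single library in each set, namely WT replicate 1 among those with Y-linked transcripts and Lmln-KO replicate 3, the younger animal, among those with Xist. The hepatocyte marker Alb was abundant in all libraries, at 45715, 55393 and 60834 CPM in Lmln-KO replicates 1, 2 and 3, against 67736, 62501 and 74329 CPM in WT replicates 1, 2 and 3. Every Lmln-KO library was thus below every WT library, which held for 5.73% of all genes tested.

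Cyp7b1, the oxysterol 7-alpha-hydroxylase of the alternative route, was the member with the clearest difference between Lmln-KO and WT livers. Within each sex-marker set every Lmln-KO library was above every WT library, which held for 11.8% of all genes tested. The Lmln-KO libraries had 1.50 to 1.73 times the WT mean of the set, which with Y-linked transcripts is WT replicate 1 alone. Only DESeq2 with the sex-marker term called that difference, and edgeR and limma-voom did not. Cyp7a1 and Cyp8b1, which set how much bile acid is made and how much of it is cholic acid, varied more between libraries of the same genotype than between the genotypes. With the sex-marker term the 8 tested members other than Cyp7b1 had log2 fold changes of at most 0.14 in size, and none was called. Hsd3b7 could not be assessed from these counts. In bulk tissue, fewer cells of a type and less RNA per cell cannot be told apart.

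**Figure D1:**
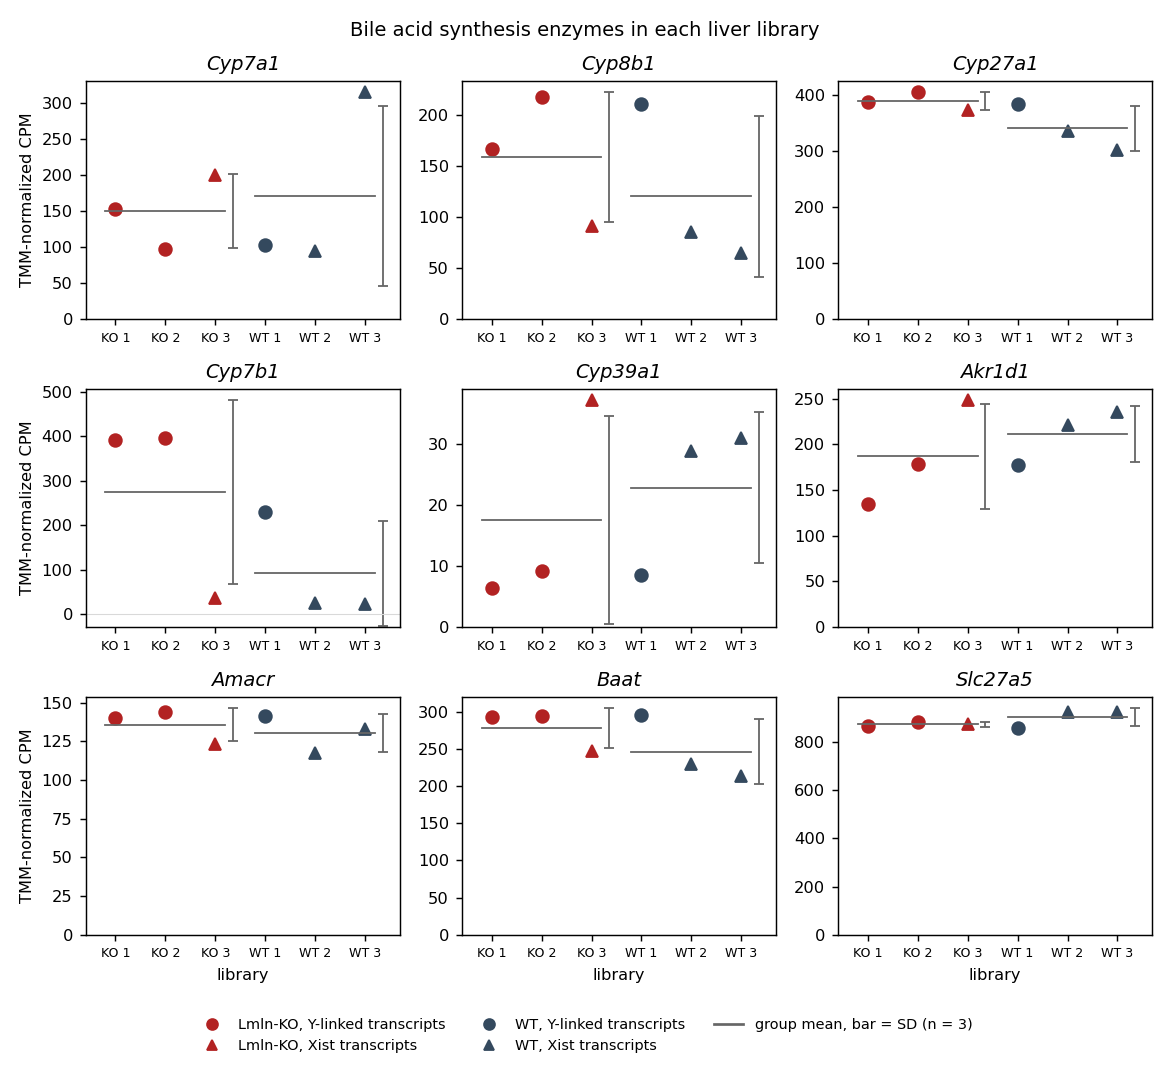
TMM-normalized CPM, that is counts scaled to library size (y axes from 0 or just below) of the 9 counted members in each library (x axes), Lmln-KO in red and WT in dark blue; circles are libraries with Y-linked transcripts, triangles are libraries with Xist, lines are group means and bars are SD (n = 3). Cyp7b1 is at 392 and 396 CPM in Lmln-KO replicates 1 and 2, against 229 CPM in WT replicate 1, while the 3 libraries with Xist lie between 23.6 and 35.4 CPM.

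Cyp7a1 (chromosome 4, 6265612 to 6275633, GRCm38), the rate-limiting cholesterol 7-alpha-hydroxylase of the classic route, measured 152, 97.4 and 200.0 CPM in Lmln-KO replicates 1, 2 and 3, against 103, 94.0 and 314 CPM in WT replicates 1, 2 and 3. WT held both the lowest and the highest value, so the groups overlapped. Lmln-KO averaged 150 ± 51.3 CPM and WT 170 ± 125 CPM (SD, n = 3 each), and the log2 fold change was -0.18 (SE 0.578). With the sex-marker term it was 0.12 (SE 0.58), and within the sets it was 0.24 among libraries with Y-linked transcripts and 0.22 among those with Xist. The sign by genotype rested on WT replicate 3: without it the log2 fold change was 0.61. Leaving out Lmln-KO replicate 2 also gave a positive value, 0.05.

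Cyp8b1 (chromosome 9, 121914356 to 121916305), the sterol 12-alpha-hydroxylase needed for cholic acid, measured 167, 218 and 91.4 CPM in Lmln-KO replicates 1, 2 and 3, against 211, 85.7 and 65.1 CPM in WT replicates 1, 2 and 3. In each group the libraries with Y-linked transcripts were the high ones, and the groups overlapped. The log2 fold change was 0.40 (SE 0.564) and was 0.07 (SE 0.16) with the sex-marker term. It was -0.14 among libraries with Y-linked transcripts and 0.29 among those with Xist.

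The 250 bases before the start of Cyp8b1 are shown because HNF4A and LRH-1 (Nr5a2), whose levels are given further on, are known regulators of this gene. They are from RefSeq (GRCm38.p6, chr9:121916306-121916555, minus strand, 5′ to 3′), which held promoters for 4 of the 10 members. The capitals mark matches to 3 motifs searched on both strands: CAAAGTCCA, an HNF4-type motif, at 67 to 59 bases before the start, CAAGGNC, an LRH-1-type motif, at 60 to 54, and TATAAA, the core promoter box, at 31 to 26. The HNF4-type and LRH-1-type matches overlap and appear as a single run of capitals.
Cyp8b1 promoter: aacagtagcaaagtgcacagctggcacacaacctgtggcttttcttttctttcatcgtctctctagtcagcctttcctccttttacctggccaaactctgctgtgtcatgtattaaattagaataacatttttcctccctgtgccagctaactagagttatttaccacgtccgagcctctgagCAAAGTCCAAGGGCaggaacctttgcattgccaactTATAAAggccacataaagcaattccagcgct
Among 32851 promoters of the same length, 0.384% held the HNF4-type motif, 15.0% the LRH-1-type motif and 12.4% the core promoter box. A STAT5-type motif, TTCNNNGAA, present in 7.02% of promoters, had no match in these bases. The promoters of Cyp27a1, Hsd3b7 and Akr1d1, searched in the same way, had no HNF4-type, LRH-1-type or core promoter box match. That of Hsd3b7 had 1 STAT5-type match. These are matches of letters, and no binding was measured.

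Hsd3b7 (chromosome 7, 127800604 to 127803802), the 3-beta-hydroxy-C27-steroid oxidoreductase that acts on the ring in both routes, had 0 counts in all 6 libraries. In the annotation used for counting, 2746 of its 2769 exon bases (99.2%) also belong to another gene. The predicted gene Gm49388 shares 1717 of them and the opposite-strand gene 9430064I24Rik shares 1729. The remaining stretch, which no other gene shares, is 23 bases long, and it is shown in capitals because it is shorter than a read of 36 bases (GRCm38, chr7:127802743-127802805, plus strand, 5′ to 3′).
Hsd3b7 exon bases: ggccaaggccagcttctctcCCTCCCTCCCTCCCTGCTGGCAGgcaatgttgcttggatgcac
The capitals, at 127802763 to 127802785, fall in 1 of the 13 annotated transcripts of Hsd3b7, one with a retained intron, and in 0 of its protein-coding transcripts. The 20 lower-case bases after them begin the following exon. The counting command gave no option for reads that overlap several genes, so nearly no read could be assigned to Hsd3b7 alone, and its 0 is not a level. Gm49388 likewise had 0 counts in every library. 9430064I24Rik, counted from the bases it does not share, had 42, 22 and 42 reads in Lmln-KO replicates 1, 2 and 3, against 20, 36 and 22 in WT replicates 1, 2 and 3. Of all gene names, 1225 (2.21%) have less than 1% of their exon bases unshared, and 1219 of these had no count. The other 9 members share 0 exon bases with any gene.

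Akr1d1 (chromosome 6, 37530173 to 37568815), the steroid 5-beta-reductase that sets the bent shape of the ring, measured 134, 178 and 248 CPM in Lmln-KO replicates 1, 2 and 3, against 177, 221 and 236 CPM in WT replicates 1, 2 and 3. Lmln-KO held both the lowest and the highest library. The log2 fold change was -0.18 (SE 0.226), or -0.03 (SE 0.139) with the sex-marker term.

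Cyp27a1 (chromosome 1, 74713574 to 74737892), the mitochondrial sterol 27-hydroxylase that opens the alternative route and also oxidizes side chains in the classic one, measured 389, 405 and 373 CPM in Lmln-KO replicates 1, 2 and 3, against 384, 336 and 303 CPM in WT replicates 1, 2 and 3. The groups overlapped through Lmln-KO replicate 3, which lay below WT replicate 1. Within each sex-marker set all Lmln-KO libraries were above all WT libraries. Lmln-KO averaged 389 ± 15.8 CPM and WT 341 ± 40.7 CPM (SD, n = 3 each), with a log2 fold change of 0.19 (SE 0.13) by genotype and 0.14 (SE 0.116) with the term. The difference was 0.05 among libraries with Y-linked transcripts and 0.23 among those with Xist, and edgeR's adjusted p was 0.933 by genotype and 0.987 with the term.

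Cyp7b1 (chromosome 3, 18071950 to 18243338) is known to be higher in male than in female mouse liver. It measured 392, 396 and 35.4 CPM in Lmln-KO replicates 1, 2 and 3, against 229, 23.8 and 23.6 CPM in WT replicates 1, 2 and 3. The libraries with Y-linked transcripts were all high and those with Xist all low, so the genotypes overlapped, while within each set Lmln-KO was above WT. Lmln-KO averaged 274 ± 207 CPM and WT 92.0 ± 118 CPM (SD, n = 3 each), with a log2 fold change of 1.58 (SE 1.44) and an edgeR adjusted p of 0.933. That value depended on the set: without WT replicate 1 it was 3.54, and without WT replicate 2 or 3 it was 1.12.

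With the sex-marker term the log2 fold change of Cyp7b1 was 0.69 (SE 0.107). The difference of mean log2 CPM was 0.78 among libraries with Y-linked transcripts and 0.58 among those with Xist. In that fit Cyp7b1 ranked 9 by p among 18703 genes, with an unadjusted p of 0.000138 and an adjusted p of 0.286 in edgeR. DESeq2 with the term gave 0.70 and an adjusted p of 6.99e-05, and limma-voom with the term gave 0.68 and an adjusted p of 0.269. DESeq2 by genotype alone gave Cyp7b1 no adjusted p. Over the alternatives that gave one, the adjusted p ran from 6.99e-05 to 1.

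When Lmln-KO replicate 3 or WT replicate 1 was left out, DESeq2 no longer made the call (0.80 with adjusted p 0.9998, and 0.59 with adjusted p 0.99999). In both cases 1 set is left with a single genotype, and the comparison rests on the other set. The call held without Lmln-KO replicate 1 or 2 (adjusted p 0.0382 and 0.0391) and without WT replicate 2 or 3 (adjusted p 0.00278 and 0.000562). Age is not balanced either, since the only Lmln-KO library with Xist is the 39-week one and all other libraries are from older mice. Among libraries with Xist, age and genotype therefore cannot be told apart, and the part of age in the difference was not tested.

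**Figure D2:**
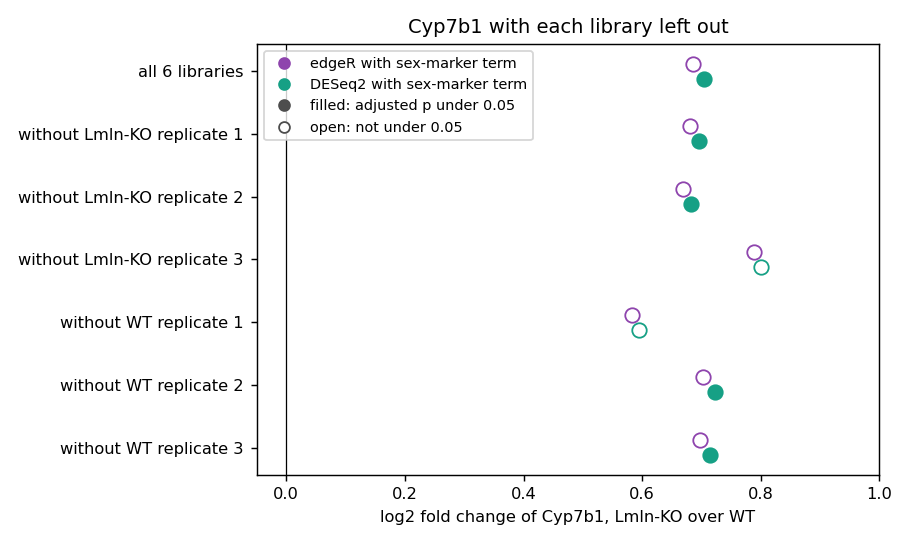
Log2 fold change of Cyp7b1, Lmln-KO over WT (x axis), in fits with the sex-marker term on all libraries and with each library left out (rows); purple is edgeR, green is DESeq2, and filled points have an adjusted p under 0.05. All estimates lie between 0.58 and 0.80, none of the edgeR points is filled, and the DESeq2 points are open when Lmln-KO replicate 3 or WT replicate 1 is left out.

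Cyp39a1 (chromosome 17, 43667425 to 43751431), an oxysterol 7-alpha-hydroxylase with a preference for 24-hydroxycholesterol, measured 6.34, 9.26 and 37.3 CPM in Lmln-KO replicates 1, 2 and 3, against 8.61, 28.9 and 31.1 CPM in WT replicates 1, 2 and 3. It was low in the libraries where Cyp7b1 was high and high where Cyp7b1 was low, and the groups overlapped. The log2 fold change was -0.37 (SE 0.90), or 0.11 (SE 0.169) with the sex-marker term. Within the sets it was -0.17 among libraries with Y-linked transcripts and 0.31 among those with Xist. By genotype it was -1.54 without Lmln-KO replicate 3, -0.76 without WT replicate 1 and 0.03 without Lmln-KO replicate 1.

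Amacr (chromosome 15, 10981756 to 10996626), the racemase that prepares the side chain for peroxisomal shortening, measured 140, 144 and 123 CPM in Lmln-KO replicates 1, 2 and 3, against 141, 117 and 133 CPM in WT replicates 1, 2 and 3. Its log2 fold change was 0.06 (SE 0.118) by genotype. Adding the sex-marker term gave -0.01 (SE 0.101). The groups overlapped throughout.

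Slc27a5 (chromosome 7, 12988346 to 12998192), the bile acyl-CoA synthetase that activates bile acids for conjugation, measured 865, 885 and 874 CPM in Lmln-KO replicates 1, 2 and 3, against 860, 927 and 925 CPM in WT replicates 1, 2 and 3. It was the steadiest member, with 1.08 times between its lowest and highest library. Its log2 fold change was -0.05 (SE 0.124) by genotype and -0.03 (SE 0.127) in the fit with the term. Baat (chromosome 4, 49489422 to 49506557), which transfers the activated bile acid to taurine or glycine, measured 293, 295 and 247 CPM in Lmln-KO replicates 1, 2 and 3, against 296, 230 and 214 CPM in WT replicates 1, 2 and 3. The highest library was WT replicate 1, so the groups overlapped. The log2 fold change of Baat was 0.17 (SE 0.155), and 0.07 (SE 0.108) with the term.

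By genotype, edgeR called 0 of the 9 tested members at an adjusted p under 0.05 (range 0.933 to 0.975), as it called 0% of the 18703 genes tested. No member had an unadjusted p under 0.05, against 4.66% of all genes. DESeq2 called 0 of the 8 members to which it gave an adjusted p, against 0.0785% of all genes, and limma-voom called 0. With the sex-marker term edgeR again called 0 of 9, against 0.00535% of all genes, and 1 member, Cyp7b1, had an unadjusted p under 0.05, against 4.34% of all genes. DESeq2 with the term called 1 of 9, again Cyp7b1, against 0.154% of all genes.

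The groups did not overlap in 0 of 9 members, against 10.3% of all genes. Every Lmln-KO library was above every WT library within each sex-marker set in 2 of 9 members, Cyp7b1 and Cyp27a1, against 11.8% of all genes. By genotype 5 members were positive and 4 negative, and their median log2 fold change was 0.06, against a median of -0.004 over all genes tested. With the term 6 were positive and 3 negative, with a median of 0.07, against -0.002 over all genes. The median difference of the members was 0.01 among libraries with Y-linked transcripts and 0.22 among those with Xist. P-values measure the spread between these libraries, because the labels do not say that each came from its own animal.

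**Figure D3:**
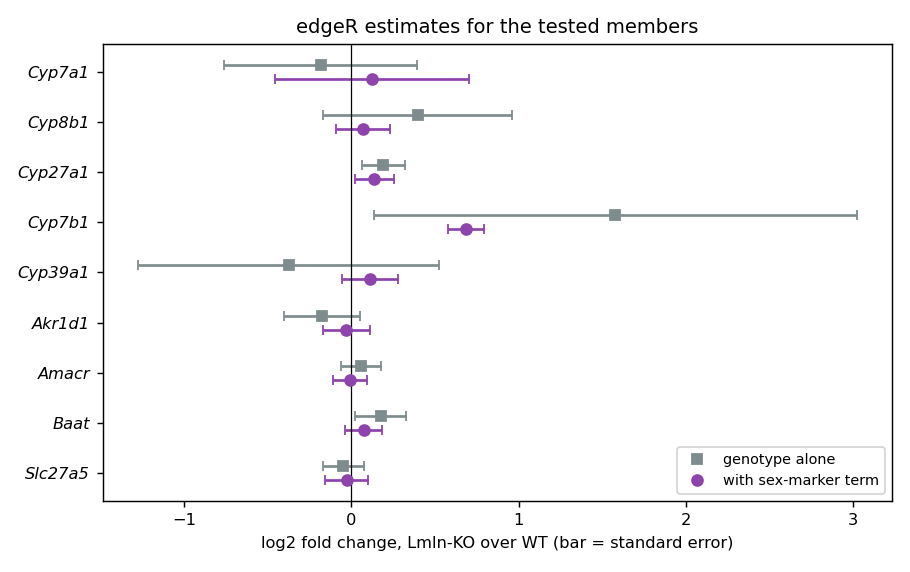
Log2 fold changes of the 9 tested members, Lmln-KO over WT (x axis), from edgeR by genotype alone (grey squares) and with the sex-marker term (purple circles); bars are standard errors. With the term Cyp7b1 stands at 0.69 and the other 8 members lie within 0.14 of 0.

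Levels of different genes were compared per length, as TPM, counts divided by exon length and scaled to the same sum in each library. Slc27a5 was the highest member in every library, with a mean of 875 TPM over the 6 libraries, and Cyp39a1 the lowest in every library, with a mean of 16.3 TPM. Between them came Cyp27a1 at 402 TPM, Baat at 323, Cyp7b1 at 197, Cyp8b1 at 169, Akr1d1 at 166, Amacr at 122 and Cyp7a1 at 92.5 TPM. Of the neighbours in this order only Slc27a5 and Cyp27a1, and Cyp7a1 and Cyp39a1, had ranges that did not overlap.

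Cyp7b1 varied most in rank. It stood at place 2, 3 and 8 of the 9 members in Lmln-KO replicates 1, 2 and 3, and 5, 8 and 8 in WT replicates 1, 2 and 3. Its highest library had 16.8 times the CPM of its lowest, against 5.88 times for Cyp39a1, 3.34 for both Cyp8b1 and Cyp7a1, 1.85 for Akr1d1, and 1.38 or less for Baat, Cyp27a1, Amacr and Slc27a5. The ratio of Cyp7b1 to Cyp7a1, one enzyme from each route, was 4.96, 7.83 and 0.341 in TPM in Lmln-KO replicates 1, 2 and 3, against 4.27, 0.488 and 0.144 in WT replicates 1, 2 and 3. Transcripts of Cyp7b1 thus outnumbered those of Cyp7a1 in the 3 libraries with Y-linked transcripts and were fewer in the 3 with Xist. The summed TPM of the 9 counted members was 2633, 2547 and 2397 in Lmln-KO replicates 1, 2 and 3. In WT replicates 1, 2 and 3 it was 2392, 2132 and 2091, so the genotypes did not overlap, though Lmln-KO replicate 3 was only just above WT replicate 1. Their summed CPM was 2539, 2627 and 2230 in Lmln-KO replicates 1, 2 and 3. In WT replicates 1, 2 and 3 it was 2410, 2064 and 2244 CPM, so the genotypes overlapped in that measure.

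**Figure D4:**
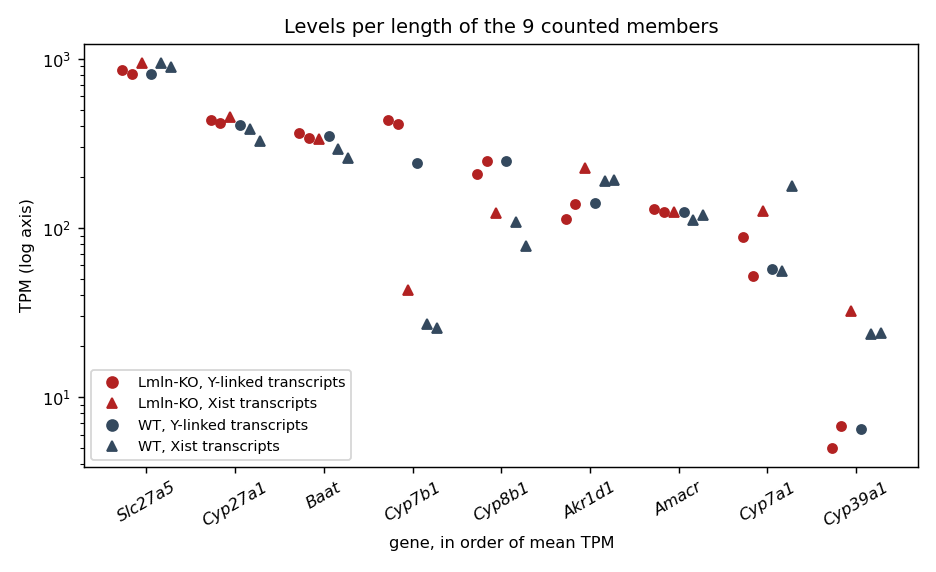
TPM (y axis, log scale) of the 9 counted members in each library, ordered by mean TPM (x axis), with Lmln-KO in red, WT in dark blue, circles for libraries with Y-linked transcripts and triangles for libraries with Xist. Slc27a5 is highest and Cyp39a1 lowest in all 6 libraries, and Cyp7b1 spreads from 25.5 to 437 TPM.

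Among 13946 other genes whose log2 CPM averaged 1 or more, those most like Cyp7a1 over the 6 libraries were Cdk4, Ddx47 and Bicdl1 (Pearson's r of log2 CPM 0.997, 0.995 and 0.992). Cdk4, a cell cycle kinase, measured 23.5, 20.4 and 25.4 CPM in Lmln-KO replicates 1, 2 and 3, against 20.5, 20.0 and 28.2 CPM in WT replicates 1, 2 and 3, a far narrower range than that of Cyp7a1. The genes most like Cyp7b1 were Mup-ps19, Usp10 and Zkscan7 (r 0.997, 0.996 and 0.996). Mup-ps19, of the major urinary protein family whose near-identical members share reads, measured 19.7, 23.9 and 0.767 CPM in Lmln-KO replicates 1, 2 and 3, against 14.2, 0.374 and 0.288 CPM in WT replicates 1, 2 and 3. These values for Cyp7b1 follow the sex-marker sets, which the 6 points share. They are descriptions picked from many genes and were not tested.

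No gene of the side chain, peroxisomal and other bile acid steps was called. Of 20 listed, 19 were tested and by genotype 15 were positive and 4 negative. Their median log2 fold change was 0.09 in both fits. EdgeR and DESeq2 called 0 of them in either fit, and 0 had an unadjusted p under 0.05 in edgeR. Hsd17b4, the peroxisomal multifunctional enzyme, measured 404, 452 and 405 CPM in Lmln-KO replicates 1, 2 and 3, against 378, 397 and 273 CPM in WT replicates 1, 2 and 3, without overlap, and its log2 fold change was 0.27 (SE 0.163). Scp2, the thiolase that ends the shortening, had a log2 fold change of 0.71 (SE 0.588) by genotype and 0.22 (SE 0.154) with the sex-marker term, and its libraries overlapped. With the term the log2 fold changes were 0.20 for Abcd3, a peroxisomal importer, and -0.09 for Acox2, the branched-chain oxidase. Those of Acot8, a peroxisomal thioesterase, and of the aldo-keto reductases Akr1c6 and Akr1c14 were 0.27, 0.16 and 0.12. Acot8 shares 12.3% and Akr1c14 7.22% of its exon bases with another gene. Cyp2c70, which makes muricholic acids in mice, and Cyp46a1, which makes 24-hydroxycholesterol, the substrate of Cyp39a1, had -0.06 and -0.04. Ch25h, the cholesterol 25-hydroxylase, was too low to test, at 0 to 0.238 CPM.

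No regulator of the pathway was called. With the sex-marker term Nr1h4 had a log2 fold change of 0.18, Fgfr4 0.07, Klb -0.01, Nr5a2 -0.04, Hnf4a 0.02 and Nr1h3, the oxysterol receptor LXR-alpha, 0.04. Hnf4a measured 755, 684 and 757 CPM in Lmln-KO replicates 1, 2 and 3, against 682, 790 and 768 CPM in WT replicates 1, 2 and 3. Nr5a2 measured 132, 106 and 133 CPM in Lmln-KO replicates 1, 2 and 3, against 133, 125 and 125 CPM in WT replicates 1, 2 and 3. Both genes' libraries overlapped. Nr0b2 measured 52.9, 28.0 and 20.8 CPM in Lmln-KO replicates 1, 2 and 3, against 48.4, 17.1 and 13.5 CPM in WT replicates 1, 2 and 3, and had 0.08 (SE 0.31). Its Lmln-KO and WT libraries overlapped. Of 19 regulators 18 were tested, with 7 positive and 11 negative by genotype and a median of -0.07, or 0.01 with the term. EdgeR and DESeq2 called 0 in either fit. In edgeR 2 had an unadjusted p under 0.05 in both fits, against 4.66% of all genes by genotype and 4.34% with the term. Both were lower in Lmln-KO and named after their values were seen. Nr1i2, the xenobiotic receptor PXR, had -0.30, or -0.27 with the term. Foxo1, a transcription factor under insulin control, had -0.40, or -0.30 with the term.

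Transporters had no shared direction. Of 18 listed, 17 were tested, with 8 positive and 9 negative by genotype and a median of -0.01, or 0.05 with the sex-marker term. EdgeR and DESeq2 called 0 in either fit. The canalicular bile salt pump Abcb11 measured 755, 968 and 849 CPM in Lmln-KO replicates 1, 2 and 3, against 858, 844 and 870 CPM in WT replicates 1, 2 and 3, and its log2 fold change was 0.00 (SE 0.141). With the term Slc10a1, the uptake carrier NTCP, had 0.09, Slco1a1, an organic anion carrier, 0.08, and the exporters Abcc2 and Abcc3 -0.04 and -0.02. By genotype 2 of 17 transporters had an unadjusted p under 0.05 in edgeR, against 4.66% of all genes. Both were lower in Lmln-KO and named after their values were seen. Their products together form the canalicular sterol exporter. Abcg5 measured 73.3, 86.6 and 107 CPM in Lmln-KO replicates 1, 2 and 3, against 119, 116 and 262 CPM in WT replicates 1, 2 and 3 (log2 fold change -0.90, SE 0.359, edgeR adjusted p 0.933). Abcg8 measured 119, 130 and 134 CPM in Lmln-KO replicates 1, 2 and 3, against 168, 156 and 363 CPM in WT replicates 1, 2 and 3 (-0.84, SE 0.332, edgeR adjusted p 0.933). Both were highest in WT replicate 3, the library with the highest Cyp7a1, and with the term 0 transporters had an unadjusted p under 0.05, with -0.70 (SE 0.348) for Abcg5 and -0.69 (SE 0.374) for Abcg8.

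**Figure D5:**
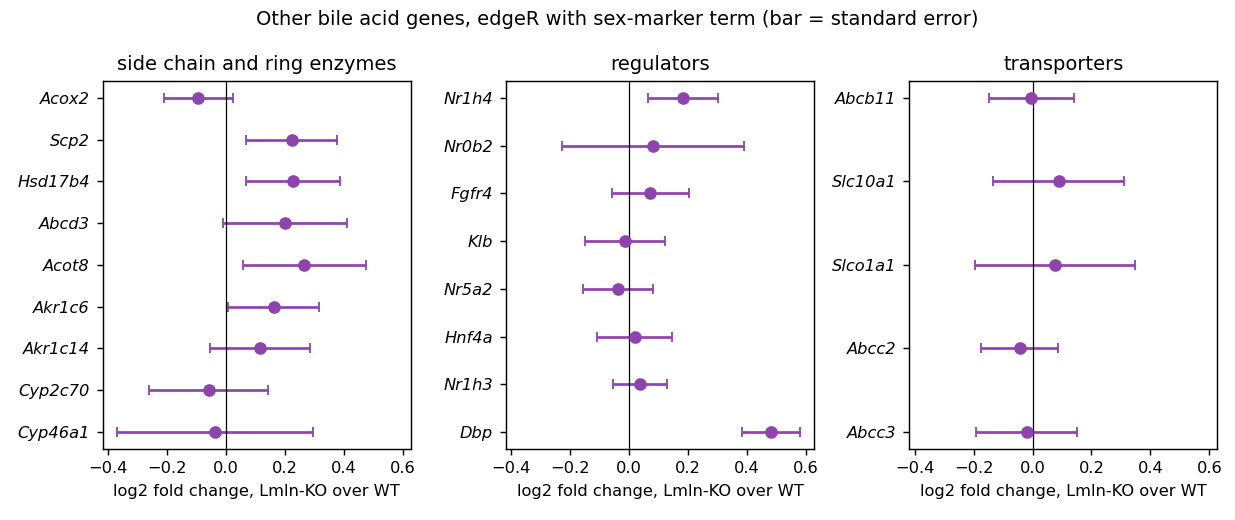
Log2 fold changes, Lmln-KO over WT (x axes), from edgeR with the sex-marker term for named side chain and ring enzymes (left), regulators including the clock gene Dbp (middle) and transporters (right); bars are standard errors. Dbp stands at 0.48 and every other gene shown lies between -0.09 and 0.27.

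Of 13 tested genes of sterol supply and sulfation, 6 were positive and 7 negative by genotype, with a median of -0.04, or 0.05 with the term, and edgeR and DESeq2 called 0 in either fit, with 0 at an unadjusted p under 0.05 in edgeR. Several bile acid genes, Cyp7a1 among them, follow the time of day, so clock genes were read as well. Of 16 tested, 12 were positive and 4 negative by genotype, with a median of 0.14, or 0.12 with the term. EdgeR called 0 in either fit. An unadjusted p under 0.05 was given to 1 of 16 by genotype (Dbp), against 4.66% of all genes. With the term it was given to 3 (Dbp and Cry2 higher, Per1 lower), against 4.34% of all genes. Cry2, a core clock repressor named after its value was seen, had 0.28 by genotype and 0.35 with the term. Dbp, a clock output factor known to act on Cyp7a1, measured 41.2, 37.6 and 51.4 CPM in Lmln-KO replicates 1, 2 and 3, against 29.4, 37.1 and 33.6 CPM in WT replicates 1, 2 and 3. The groups did not overlap, and its log2 fold change was 0.38 (SE 0.145), or 0.48 (SE 0.0989) with the term, with an edgeR adjusted p of 0.933 and 0.761. Another gene shares 18.0% of its exon bases. Per1, another core clock repressor, named after its value was seen, measured 17.8, 13.8 and 42.4 CPM in Lmln-KO replicates 1, 2 and 3, against 32.4, 61.4 and 75.0 CPM in WT replicates 1, 2 and 3. DESeq2 called 0 clock genes by genotype, against 0.0785% of all genes. With the term it called 1 of 16, Per1, as lower, against 0.154% of all genes (edgeR with the term -0.86, edgeR adjusted p 0.350, DESeq2 adjusted p 0.00547). The time of collection is not in the labels, and its part in the values of Cyp7a1 was not tested.

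Position in the lobule and cell content were read for the same libraries. Of 12 pericentral genes 12 had a positive log2 fold change by genotype (median 0.23, or 0.27 with the term), and of 12 periportal genes 11 had a negative one (median -0.40, or -0.46 with the term). The pericentral genes summed to 8179, 8167 and 11494 CPM in Lmln-KO replicates 1, 2 and 3. In WT replicates 1, 2 and 3 they summed to 7920, 9810 and 6163 CPM. The periportal genes summed to 10221, 11173 and 9254 CPM in Lmln-KO replicates 1, 2 and 3. In WT replicates 1, 2 and 3 those sums were 12819, 9975 and 19418 CPM. Both sums overlapped between the genotypes, and edgeR and DESeq2 called 0 of these genes in either fit. The hepatocyte markers summed to between 86237 and 97422 CPM in Lmln-KO and between 99019 and 111272 CPM in WT, without overlap. Of 9 tested, 3 were positive and 6 negative by genotype, with a median log2 fold change of -0.03, or -0.11 with the term. Of 8 listed B and plasma cell markers 6 were tested, all negative by genotype (median -2.08, or -1.55 with the term). In edgeR all 6 had an unadjusted p under 0.05 by genotype, against 4.66% of all genes, and 3 with the term, against 4.34%. In 5 of the 6 every Lmln-KO library was below every WT library, against 5.73% of all genes. EdgeR and DESeq2 called 0 of these markers in either fit. The median difference was -0.45 among libraries with Y-linked transcripts and -2.30 among those with Xist. Sums of the 8 were 29.9, 15.2 and 22.3 CPM in Lmln-KO replicates 1, 2 and 3. In WT replicates 1, 2 and 3 they were 30.8, 156 and 308 CPM. Kupffer cell markers were negative in 8 of 8 by genotype (median -0.17, or -0.14 with the term). Their median difference was 0.03 among libraries with Y-linked transcripts and -0.29 among those with Xist. They had sums of 229 to 273 CPM in Lmln-KO and 256 to 338 CPM in WT. Stellate cell markers were negative in 7 of 8 (median -0.28, or -0.18 with the term), with sums of 385 to 534 CPM in Lmln-KO and 470 to 557 CPM in WT. Endothelial markers had a median of -0.02 in both fits, with sums of 513 to 635 CPM in Lmln-KO and 574 to 582 CPM in WT. Cholangiocyte markers, of which 7 of 8 were tested, had a median of 0.17, or 0.04 with the term, with sums of 86.5 to 107 CPM in Lmln-KO and 76.5 to 95.8 CPM in WT. EdgeR and DESeq2 called 0 markers of these 4 cell types in either fit. Male-biased liver genes were positive in 13 of 13, with a median of 1.32 by genotype and 0.37 with the term, and female-biased genes were negative in 13 of 15, with a median of -0.59 by genotype and 0.27 with the term. Median differences of the male-biased genes were 0.42 among libraries with Y-linked transcripts and 0.24 among those with Xist. Those of the female-biased genes were 0.12 with Y-linked transcripts and 0.17 with Xist. The ileal genes Fabp6 and Fgf15 had 0 counts in every library. The part of these shifts in the Cyp7b1 difference was not tested.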

How the data were processed

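Whole-liver RNA of 3 Lmln-KO and 3 WT libraries was depleted of ribosomal RNA and sequenced as paired reads of 36 bases, per the labels' protocols. The authors deposited raw counts per gene name, made with featureCounts 2.0.1 over exons of Ensembl release 102 (GRCm38), per the file headers. The header's command has no paired-end, strand, multi-mapping or multi-overlap option, so both reads of a pair were counted and strand was ignored. The deposited table also gives each gene's exon length, from which TPM was computed. Subread 2.0.2, edgeR 3.36.0 and featureCounts are listed in the submitters' processing notes. No source used here names the aligner. Every row named a gene.

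The test was edgeR 4.0.16 (R 4.3.3) on counts (TMM scaling, filterByExpr with a minimum count of 10, robust quasi-likelihood fit on genotype), with Benjamini-Hochberg adjustment over all 18703 genes tested at 0.05. Those genes hold 99.8% of counts. Standard errors were derived from F (size of the log2 fold change over the root of F), and levels are TMM-normalized CPM. Differences within sex-marker sets use mean log2 CPM (prior count 2). Alternatives were other scalings, DESeq2 1.42.0, limma-voom (limma 3.58.1), changed filters, a replicate block, the sex-marker term and leaving out each library. Every pair of libraries differed beyond sampling noise (the smallest chi-square was 12.2 per degree of freedom). The fits were also run on simulated counts with changes set in advance, as a check of the code. That check does not bear on whether the call of Cyp7b1 is reliable.

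The members, lists and rules were chosen with earlier results of these data known. All members are named, with 23 further pathway genes chosen whatever they showed, any other listed gene called by edgeR, and the 3 genes most like Cyp7a1 and Cyp7b1. Nr1i2, Foxo1, Abcg5, Abcg8, Cry2 and Per1 fall outside this rule and were named after their values were seen. Shared exon bases come from the exon coordinates in the deposited table, transcripts from GENCODE M21 (GRCm38) and the promoter from RefSeq.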

Additional observations from a re-analysis of the deposited data

Results flagged for a closer look

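In 7 of 31 named and tested genes, every Lmln-KO library lay on one side of the WT libraries among those with Y-linked transcripts and on the other side among those with Xist, against 18.2% of all genes tested. The values are differences of mean log2 CPM, Lmln-KO minus WT, and the differences between the sets were not tested. Among the members, Baat had -0.01 among libraries with Y-linked transcripts and 0.16 among those with Xist, which differ by 0.166, and Slc27a5 had 0.03 and -0.08, which differ by -0.109. Of the other genes, Cyp46a1 had -0.51 with Y-linked transcripts and 0.48 with Xist (0.991 apart), Slc10a1 -0.30 and 0.48 (0.776), Klb -0.29 and 0.26 (0.555), Nr5a2 -0.17 and 0.08 (0.248), and Hnf4a 0.08 and -0.04 (-0.116). In each set 1 genotype is a single library.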

How the results depend on the processing

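The median log2 fold change of the members stayed between -0.01 and 0.16 over 22 alternatives, and no other scaling turned the sign of a member. Against 0 genes called by edgeR, 22 were called by DESeq2, 3 without a filter on low counts, 1 with the replicate block, 1 with the sex-marker term and 27 by DESeq2 with the term, and 0 to 4 when a library was left out. Of the members, DESeq2 with the term called 1 (Cyp7b1, 0.70), and 0 to 1 when a library was left out. That call is absent by limma-voom with the term and by DESeq2 without WT replicate 1 or Lmln-KO replicate 3. These fits, limma-voom with the term and DESeq2 with the term and a library left out, were chosen after seeing the data. With the sex-marker term the sign turned for Cyp7a1 (0.12, or 0.14 by DESeq2), Cyp39a1 (0.11, or 0.12 by DESeq2) and Amacr (-0.0060, but 0.0096 by DESeq2, with its sign not turned), and the cause was not tested. With a library left out, with or without the term, log2 fold changes ran from -0.48 to 0.62 for Cyp7a1, -0.13 to 1.08 for Cyp8b1, 0.05 to 0.29 for Cyp27a1, 0.58 to 3.54 for Cyp7b1, -1.54 to 0.31 for Cyp39a1, -0.43 to 0.12 for Akr1d1, -0.042 to 0.13 for Amacr, -0.0054 to 0.33 for Baat and -0.083 to 0.030 for Slc27a5. Same-numbered libraries of the genotypes correlated by 0.465, -0.311 and 0.405. Replicates 2, at -0.311, are split between the sex-marker sets, so these values cannot show whether the numbers pair the libraries. The replicate block called 0 members. With 3 libraries a group, differences smaller than a member's standard error in the same fit could not be detected. A member that was not called may still differ.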
